A study of Sus scrofa with 48 samples.

Results

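Adiponectin and leptin are the main protein hormones of fat cells, and the data described here follow their genes, the genes of their receptors and a pair of fat cell genes in muscle, liver and kidney of pigs. The members were chosen by gene symbol and comprised ADIPOQ (adiponectin), LEP (leptin), LEPR (the leptin receptor), ADIPOR1 and ADIPOR2 (the adiponectin receptors), PPARG and LIPE (hormone-sensitive lipase). These 7 genes were read by 8 of the 43603 probes on the array, since ADIPOR1 had 2 probes and each other gene had 1. Names of the member probes came from a match of the probe's accession to NCBI RefSeq. In all 2826 probes carried a gene name, 2628 of them through RefSeq. The others were named through gene lists that the study drew up by p-value between the lines on these same arrays. The 16 animals were Swiss Large White F2 pigs of 2 lines, with 8 pigs in each line, of which 4 were males, castrated as piglets, and 4 were females. The lines differed in the diet of the F0 boars from which they descended through F1 boars. F0 boars of line E received a standard diet with extra folate, betaine, choline, methionine and vitamins B12 and B6, which supply or help to transfer methyl groups, and F0 boars of line C received the standard diet alone. The F1 and F2 generations of both lines ate the standard diet, so that no F2 pig was itself supplemented. The F2 pigs are called F2 E and F2 C below. Their age, and the litter and sire of each pig, are not given in the sources used here. Fewer than 8 F1 boars per line sired the F2 pigs of the study, so some pigs of each line share a sire. Each sire belonged to 1 line, so sire and line cannot be told apart. The p-values treat the pigs as independent and measure only the spread between these pigs. From each pig gluteus muscle (GM), liver and kidney were hybridised to 1 array each, which gave 48 arrays.

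Adiponectin is secreted by fat cells, circulates at a high level and acts through ADIPOR1 and ADIPOR2, which are linked to AMP-activated protein kinase and to fatty acid oxidation in muscle and liver. Leptin reports the size of the fat stores to the brain and signals through LEPR and the JAK2 and STAT3 proteins. PPARG is the nuclear receptor that directs the formation of fat cells and it switches on many of their genes, ADIPOQ among them. LIPE, with PNPLA2 (adipose triglyceride lipase), releases fatty acids from stored triglyceride. Fat cells lie between and around the fibres of a muscle, so a muscle sample holds them in an amount that varies between animals. In such tissue pieces fewer cells of a type and less RNA per cell cannot be told apart.

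The arrays carried 1 colour, and all levels are log2 values of the quantile-normalized spot intensity. A difference of 1 on this scale is 2-fold. Levels of different probes are not compared, because each probe has its own brightness. The tissue labels were checked on genes that define each tissue. All 3 skeletal muscle genes with a named probe (CKM, TNNT3 and MYLPF) were higher in GM than in both other tissues. All 5 liver genes (ALB, APOA1, TTR, SERPINA1 and APOC3) were higher in liver, and SLC12A1, a salt transporter of the kidney tubule, stood well above background in kidney alone. The brightest ALB probe varied widely outside liver, from 8.16 to 13.75 in GM and from 5.65 to 15.74 in kidney. The source of this spread was not tested. Each slide of 4 arrays held a single tissue, so tissue and slide cannot be told apart in any difference between tissues. In GM and kidney each slide also held a single line, whereas in liver 2 slides held both lines. In GM the local background around the spots was 14 to 24 on the F2 C arrays and 26 to 28 on the F2 E arrays, without overlap. The probes well above background numbered 23491 to 28754 on these F2 C arrays and 18948 to 25728 on the F2 E arrays. The part of these gaps in any line difference in GM was not tested.

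Across tissues, ADIPOQ, PPARG and LIPE were far higher in GM than in liver or kidney, ADIPOR2 was highest in liver, LEP was highest in kidney, and LEPR was measured above background in liver only. The model took all 48 arrays on 1 scale, treated the 3 samples of a pig as a random block and adjusted p-values over 34501 probes. Of all probes, 70.6% were called between GM and liver, 75.1% between GM and kidney and 70% between liver and kidney at an adjusted p below 0.05. Among the member probes 7 of 8 were called between GM and liver, 5 higher and 2 lower in GM, where 35% of all probes were higher and 35.6% lower. Between GM and kidney all 7 tested member probes were called, 6 higher and 1 lower in GM, where 35.2% of all probes were higher and 39.9% lower. Between liver and kidney 7 of 8 were called, 4 higher and 3 lower in liver, where 33.5% of all probes were higher and 36.6% lower. A call between tissues was thus the usual state of a probe, and the sizes and orders below describe the members better than the counts.

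Of the ligands, ADIPOQ was read at 9.58 in the lowest, 10.58 in the median and 11.98 in the highest of the 16 GM samples. In liver it ranged from 5.29 to 6.53 around a median of 6.11, and in kidney from 5.78 to 6.36 around a median of 6.10. Every GM sample thus lay above every liver and kidney sample. ADIPOQ was 24.0-fold higher in GM than in liver, a log2 difference of 4.59 (SE 0.14, limma adjusted p = 2.08e-32), and 23.4-fold higher than in kidney, a difference of 4.55 (SE 0.14, limma adjusted p = 3.31e-32). It was higher in GM in 16 of 16 pigs in both comparisons, for which the exact two-sided sign-flip test over pigs gave 3.05e-05, the smallest p it can give. The ADIPOQ spot was well above background on 16 GM, 11 liver and 14 kidney arrays, so the liver and kidney levels lay close to the detection limit. The log2 differences were larger, 6.07 against liver and 5.95 against kidney, on the background-subtracted signal of the scanner software. Liver and kidney were not told apart for ADIPOQ, with a difference of -0.04 (95% interval -0.32 to 0.25, limma adjusted p = 0.824). That last result depended on the scaling, since the median signal scaled to its 75th percentile gave 0.48 higher in liver (limma adjusted p = 0.0229).

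LEP had a different order from ADIPOQ. In kidney LEP ranged from 7.97 to 8.85 with a median of 8.53, in GM from 6.71 to 8.37 with a median of 7.53, and in liver from 6.84 to 8.32 with a median of 7.33. The ranges overlapped, but LEP was higher in GM than in kidney in 1 of 16 pigs and higher in liver than in kidney in 1 of 16 pigs. Kidney stood 1.85-fold above GM, a GM over kidney log2 difference of -0.89 (SE 0.14, limma adjusted p = 1.14e-07). It stood 2.04-fold above liver, a liver over kidney difference of -1.03 (SE 0.14, limma adjusted p = 4.24e-09). GM and liver differed by 0.14 (95% interval -0.13 to 0.42, limma adjusted p = 0.353), less than the spread between pigs. The LEP spot was well above background on 14 GM, 16 liver and 16 kidney arrays.

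Of the receptors, LEPR was well above background on 14 liver arrays and on no GM or kidney array. In liver it ranged from 5.78 to 8.00 with a median of 6.85, and the difference between the lowest and highest pig was the widest of any member in that tissue. On the normalized signals, those below background included, the GM over liver difference of LEPR was -1.52 (limma adjusted p = 1.42e-14). The liver over kidney difference was 1.81 (limma adjusted p = 4.84e-17), and GM and kidney were not compared for LEPR. Since GM and kidney give only an upper bound, liver was at least 1.77-fold above GM and at least 2.51-fold above kidney, and these bounds were not tested. These bounds set the mean in liver against the lowest signal that the scanner software called well above background, or the probe's own value where that was higher.

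The adiponectin receptors took different orders. ADIPOR1 was highest in GM, lower in liver and lowest in kidney on both of its probes. On probe 1 (A_72_P077761) its GM samples spanned 10.03 to 11.48, its livers 9.50 to 10.78 and its kidneys 8.21 to 8.90. The GM and liver ranges overlapped, with GM higher in 15 of 16 pigs, and kidney lay below both without overlap. The difference between GM and liver was 0.71 (SE 0.10, 1.64-fold, limma adjusted p = 8.74e-09) on probe 1 and 0.57 (SE 0.12, 1.48-fold, limma adjusted p = 6.89e-05) on probe 2 (A_72_P187361). GM exceeded kidney by 2.48 on probe 1 and 2.44 on probe 2. The 2 probes followed each other with r = 0.98 over the 48 arrays, and within a tissue the r was 0.94 (GM), 0.74 (liver) and 0.86 (kidney), as a description.

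ADIPOR2 spanned 9.33 to 11.22 in the livers, 8.09 to 9.19 in the GM samples and 6.17 to 7.26 in the kidneys, and no pair of tissues overlapped. Liver stood 3.54-fold above GM, a GM over liver difference of -1.82 (SE 0.15, limma adjusted p = 2.18e-15), and GM stood 3.83-fold above kidney, a difference of 1.94 (SE 0.15, limma adjusted p = 2.48e-16). Liver exceeded kidney by 3.76 (13.6-fold), or by 4.53 on the background-subtracted signal. The spread between pigs was widest in liver, where the SD of ADIPOR2 was 0.63 (n = 16), against 0.31 in GM and 0.31 in kidney.

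PPARG spanned 10.27 to 11.56 in the GM samples, 7.69 to 8.74 in the kidneys and 6.53 to 7.86 in the livers. GM lay above both other tissues without overlap, 13.3-fold above liver (difference 3.74, SE 0.12, limma adjusted p = 6.42e-32) and 6.34-fold above kidney (difference 2.67, SE 0.12, limma adjusted p = 1.13e-25). Kidney was 2.10-fold above liver, with liver higher in 0 of 16 pigs although the ranges of all pigs just overlapped (liver over kidney -1.07, SE 0.12, limma adjusted p = 3.29e-11). On the background-subtracted signal the GM over liver difference of PPARG was 4.33.

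LIPE had the same order as PPARG, GM above kidney above liver, and here all 3 tissues were free of overlap. Its GM samples spanned 13.87 to 15.72, its kidneys 10.80 to 12.28 and its livers 9.52 to 10.56. GM stood 26.1-fold above liver (difference 4.70, SE 0.15, limma adjusted p = 7.48e-32) and 8.61-fold above kidney (difference 3.11, SE 0.15, limma adjusted p = 3.05e-24, or 3.77 on the background-subtracted signal). Kidney stood 3.03-fold above liver (liver over kidney -1.60, SE 0.15, limma adjusted p = 2.15e-13).

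**Figure D1:**
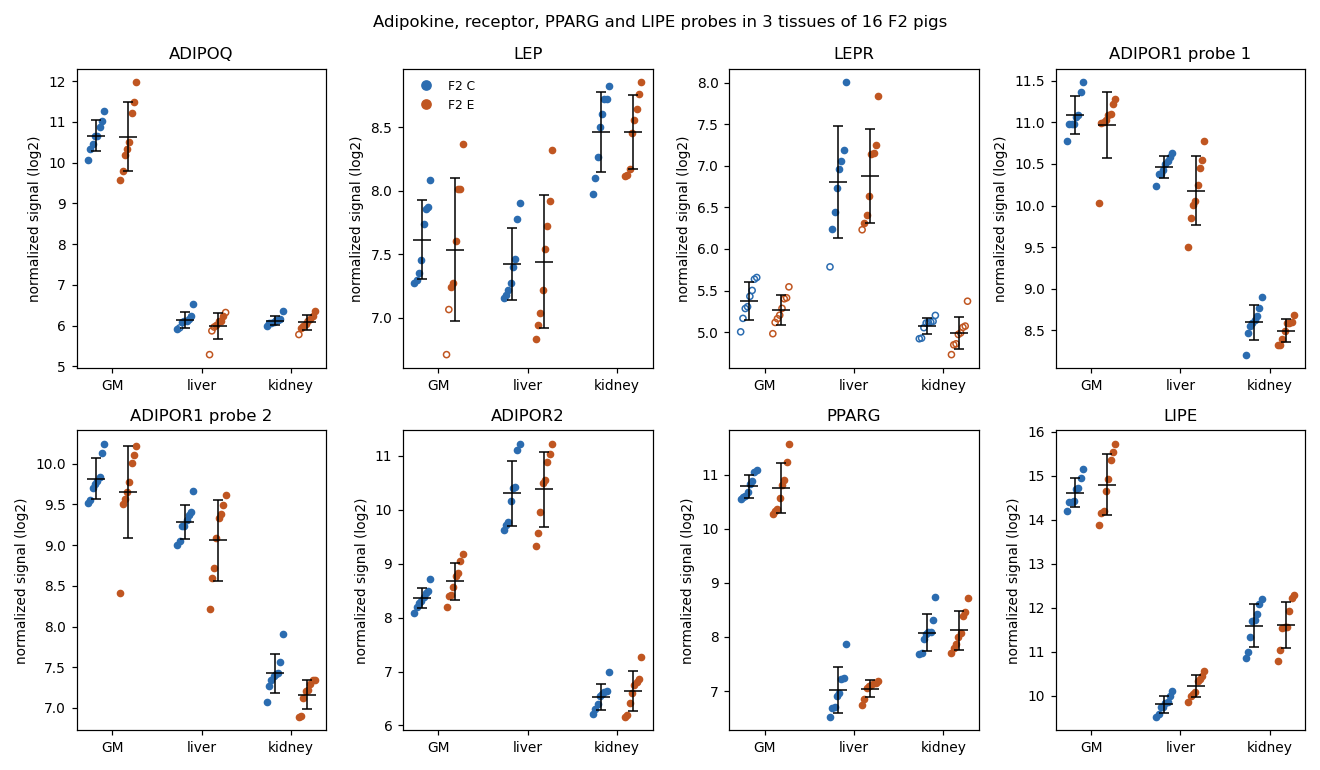
Log2 signal (y axis) of the 8 member probes in GM, liver and kidney (x axis), 1 point per pig, with F2 C in blue and F2 E in orange, open points where the spot was not well above background, and bars for the mean and SD of the 8 pigs of a line. ADIPOQ, PPARG and LIPE stand highest in GM, ADIPOR2 and LEPR in liver and LEP in kidney, and the lines overlap in every panel and tissue.

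Lists of genes that work with the members were read with 1 probe per gene, the brightest. Their counts below stand beside the shares of all probes given above, where 70.6% were called between GM and liver and 75.1% between GM and kidney, and a share near these is no result about a list. Of 16 adipocyte marker genes 9 had a named probe, and of these 7 were higher and 0 lower in GM than in kidney, with a median difference of 1.10 against -0.05 over all probes. Against liver 5 of the 9 were higher and 1 was lower in GM, with a median of 1.08 against -0.01. FABP4, the fatty acid carrier of fat cells, had a mean of 15.15 in GM, 8.85 in liver and 11.58 in kidney. LPL, which frees fatty acids from blood lipoproteins and is made by muscle as well as fat, was at least 84.7-fold higher in GM than in liver, where no array read it well above background. RBP4, a retinol carrier made by liver as well as fat, was the marker that was lower in GM than in liver.

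Of 19 genes of adipokine signalling 8 had a named probe, of which 3 were higher and 3 lower in GM than in liver, and 4 higher and 2 lower in GM than in kidney. CDH13, which codes for T-cadherin, an adiponectin-binding protein of the cell surface, had a mean of 10.42 in GM against 7.15 in liver and 8.02 in kidney. It was higher in GM in 16 of 16 pigs in both comparisons. The catalytic AMP-activated kinase subunit gene PRKAA2 exceeded liver in GM by 3.42 and kidney by 3.40. PRKAG3, the regulatory subunit of skeletal muscle, was at least 10.5-fold higher in GM than in liver. STAT3, which carries the leptin signal, was the reverse, higher in liver than in GM by 1.43 (GM over liver -1.43), and JAK2 was called in no tissue comparison.

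Of 16 lipolysis genes 7 had a named probe, of which 5 were higher and 1 lower in GM than in liver, and 5 higher and 0 lower than in kidney. PNPLA2 was among the higher ones, by 1.71. ABHD5, which activates PNPLA2, went the other way, with a mean of 14.12 in liver against 10.20 in GM and 9.17 in kidney. Of 11 partners and regulators of PPARG 4 had a named probe, of which 3 were higher and 1 lower in GM than in liver, and 2 higher and 2 lower than in kidney. RXRG, a partner with which PPARG binds DNA, had a mean of 9.92 in GM, 8.53 in liver and 6.46 in kidney. Its other probe was also higher in GM than in both tissues. Of 11 other adipokines 7 had a named probe, of which 4 were higher and 2 lower in GM than in liver, and 4 higher and 0 lower than in kidney. TNF was higher in GM than in liver on its brightest probe only, with means of 10.46 and 9.57. Its other probes gave GM over liver differences of -0.22 (limma adjusted p = 0.0899) and -0.60 (limma adjusted p = 1.43e-07). The latter was well above background on 0 GM arrays. NAMPT (visfatin), an enzyme of nicotinamide use that is also secreted, had the order GM, liver, kidney, with means of 12.52, 11.85 and 10.43.

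Between the lines no member was called in any tissue. The question here was whether the F2 pigs differed by the diet of their F0 ancestors. In GM 7 of the 8 member probes were tested and 0 passed limma's adjusted p of 0.05, where 0.769% of all 25625 probes did. In liver 0 of 8 passed, against 0.0937% of 28823 probes, and in kidney 0 of 7, against 0.0119% of 33664 probes. Without adjustment 1 member probe had a p below 0.05 in each tissue, where over all probes the share was 16.1% (GM), 8.29% (liver) and 3.89% (kidney). With 7 or 8 probes tested, 1 is the smallest count above 0. The methods' t-test called 0 members after Benjamini-Hochberg adjustment and had 1 below 0.01, LIPE in liver, where 619 of 28823 probes were below 0.01 by that test (1410 of 25625 in GM and 353 of 33664 in kidney). As a log2 ratio with F2 C as the denominator, the tested member probes had a median of -0.03 (GM), 0.02 (liver) and -0.00387 (kidney), beside -0.02, -0.02 and -0.01 over all probes. Values below are on the scale of the 16 arrays of a tissue, normalized by themselves.

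LIPE in liver had the smallest p of all members. It was read at 9.49 in the lowest, 9.76 in the median and 10.09 in the highest F2 C liver, and at 9.83, 10.19 and 10.56 in the F2 E livers. All 8 F2 E livers lay above the F2 C median and 4 lay above the highest F2 C liver, while the groups overlapped. The ratio was 0.42 (SE 0.12, 95% interval 0.17 to 0.67, 1.34-fold), with an exact permutation p of 0.00389 and a limma p of 0.00258 before and 0.275 after adjustment over all probes. This gene stands in a list that the study drew up by p-value on these same livers, so its difference is not independent evidence. Within the slides that held both lines, each with 2 pigs per line, the ratio was 0.49 on slide 1 and 0.31 on slide 2. With the slide as a block it was 0.41 (random) or 0.40 (fixed), and over all alternatives with all pigs or a subset it lay between 0.31 and 0.49.

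Beside LIPE, FABP4 had the largest ratio of the adipocyte markers in these livers. It ranged from 7.41 to 9.44 in F2 C and from 8.84 to 9.76 in F2 E, with a ratio of 0.89 (SE 0.25), an exact permutation p of 0.00699 and a limma adjusted p of 0.266. The gap was not even over the slides. On slides 1 and 2, which held both lines, FABP4 spanned 7.41 to 8.32 in F2 C and 8.87 to 9.76 in F2 E. On the slides of a single line it spanned 8.52 to 9.44 in F2 C and 8.84 to 9.65 in F2 E, which overlap. Over the adipocyte markers the signs were mixed, as 3 of the 6 present in liver had ratios above 0 and 3 below, with a median of -0.03 and 0 called by limma. The mean of 7 markers that had a value on all 48 arrays, among them PLIN1, AQP7 and LPL, which were not present in liver, ranged on the scale of the 48 arrays from 7.73 to 8.03 in F2 C and from 7.75 to 8.45 in F2 E livers. On the scale of the liver arrays alone its line difference was 0.11 with an exact permutation p of 0.236. LPL was well above background on 0, AQP7 on 2 and PLIN1 on 4 of the 16 liver arrays. The part of fat cells in the LIPE difference was not tested.

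**Figure D2:**
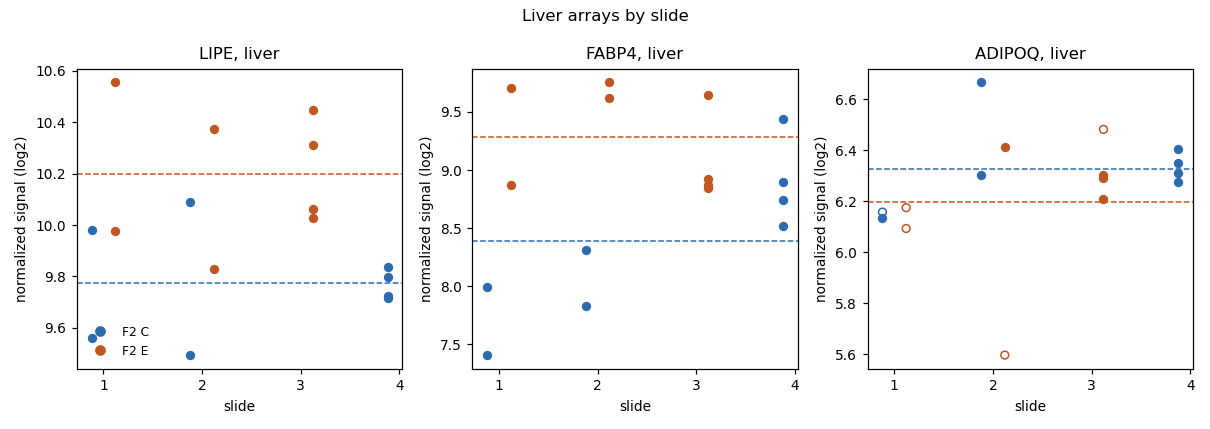
Log2 signal (y axis) of LIPE, FABP4 and ADIPOQ in the 16 livers, sorted by slide (x axis), with F2 C in blue, F2 E in orange, open points where the spot was not well above background, and dashed lines at the mean of each line. On both slides that held both lines the mean of LIPE was higher in F2 E, by 0.49 and 0.31, and ADIPOQ stayed close to background in both lines.

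LIPE in GM and kidney was far from the threshold. In GM it ranged from 13.59 to 14.65 around 13.98 in F2 C and from 13.23 to 15.28 around 14.23 in F2 E. The F2 E samples lay on both sides of the F2 C range, 3 above and 3 below it, and the ratio was 0.20 (95% interval -0.37 to 0.77, limma adjusted p = 0.744). By the numbers of the pigs, which form 2 series of 8 with 4 pigs per line, it was -0.19 within the lower series (limma adjusted p = 0.857) and 0.60 within the upper series (limma adjusted p = 0.173). Those 4 pigs also shared a slide in GM, so series and slide cannot be told apart. In kidney the ratio was 0.02 (95% interval -0.47 to 0.50). Whether the line effect on a member differed between tissues was tested in 24 comparisons, of which 0 were called by limma and 0 had an unadjusted p below 0.05 (smallest adjusted p = 0.950). Of all probes 0.122% were called for GM against liver, 0.0464% for GM against kidney and 0.0203% for liver against kidney, and 7.48%, 5.7% and 2.28% had an unadjusted p below 0.05.

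The ligands did not differ between the lines beyond their spread. ADIPOQ in GM was read at 9.11, 9.73 and 10.42 in the lowest, median and highest F2 C sample and at 8.62, 9.49 and 11.17 in F2 E. The F2 E range covered the whole F2 C range and the ratio was -0.02 (95% interval -0.68 to 0.64, limma adjusted p = 0.983), so these pigs set only wide bounds on the difference. In liver ADIPOQ had a ratio of -0.13, and its spot passed the background limit in 7 of the F2 C and 4 of the F2 E livers. In kidney the ratio was -0.06.

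LEP in GM was read at 6.50, 6.77 and 7.20 in F2 C and at 6.07, 6.64 and 7.46 in F2 E, a ratio of -0.05 (95% interval -0.43 to 0.33, limma adjusted p = 0.912). This mean joined opposite values. Within the lower series of pig numbers LEP was 0.54 lower in F2 E (ratio -0.54, limma adjusted p = 0.0869) and within the upper series it was 0.43 higher (limma adjusted p = 0.217). The LEP spot was well above background in 8 of the F2 C and 6 of the F2 E GM samples. F2 E replicates 4 and 8, where it was not, belong to the lower series. Each series of a line was a slide of its own in GM, so series and slide cannot be told apart here. In liver and kidney the ratios of LEP were 0.02 and -0.00387.

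Among the receptors the smallest limma p before adjustment was that of ADIPOR1 probe 2 in kidney (0.0337), described below. ADIPOR2 in GM had 0.0385 by the same test, and the smallest limma adjusted p of the receptors. It was read at 7.21, 7.43 and 7.79 in F2 C and at 7.31, 7.74 and 8.24 in F2 E, so that 7 of 8 F2 E samples lay above the F2 C median and the groups overlapped. The ratio was 0.29 (SE 0.13, 95% interval 0.02 to 0.57), with an exact permutation p of 0.0412 and a limma adjusted p of 0.281, or 0.825 with the slide as a random block. In liver ADIPOR2 had a ratio of 0.08 (95% interval -0.54 to 0.70) and in kidney of 0.12 (95% interval -0.28 to 0.52). The kidney mean joined opposite values too, 0.68 within the lower series (limma adjusted p = 0.335) and -0.44 within the upper series (limma adjusted p = 0.280). In kidney, as in GM, each series of a line was a slide of its own, so series and slide cannot be told apart.

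ADIPOR1 had ratios below 0 in each tissue on both probes, and 0 of these 6 ratios were called. In liver they were -0.29 (SE 0.15, limma adjusted p = 0.643) on probe 1 and -0.22 on probe 2, and in GM -0.13 and -0.16. In kidney probe 2 was read at 7.51, 7.88 and 8.45 in F2 C and at 7.29, 7.67 and 7.82 in F2 E, with 0 of 8 F2 E kidneys above the F2 C median. Its ratio was -0.30 (SE 0.13, limma adjusted p = 1.00) with an exact permutation p of 0.0244, while probe 1 of the same gene gave -0.10 with an exact permutation p of 0.288. In GM the ratios of both probes were 0.01 and 0.02 without F2 E replicate 2, whose signals lay apart from the other F2 E samples. LEPR could be compared in liver alone, where it ranged from 6.02 to 8.00 in F2 C and from 6.40 to 7.85 in F2 E, a ratio of 0.06 (95% interval -0.47 to 0.59).

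PPARG had small ratios with wide intervals. In GM it was read at 9.62, 9.83 and 10.20 in F2 C and at 9.33, 9.76 and 10.73 in F2 E, and the F2 E range again covered that of F2 C. The GM ratio was -0.03 (95% interval -0.41 to 0.36), the liver ratio 0.02 (95% interval -0.28 to 0.32) and the kidney ratio 0.05 (95% interval -0.33 to 0.43). The wider spread of F2 E in GM was seen in 7 of the 7 tested member probes, which had a larger SD in F2 E, as did 60.5% of all named probes present in GM. In liver 6 of 8 and in kidney 4 of 7 member probes had a larger SD in F2 E, beside 71.6% and 60.7% of named probes. These counts are a description.

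**Figure D3:**
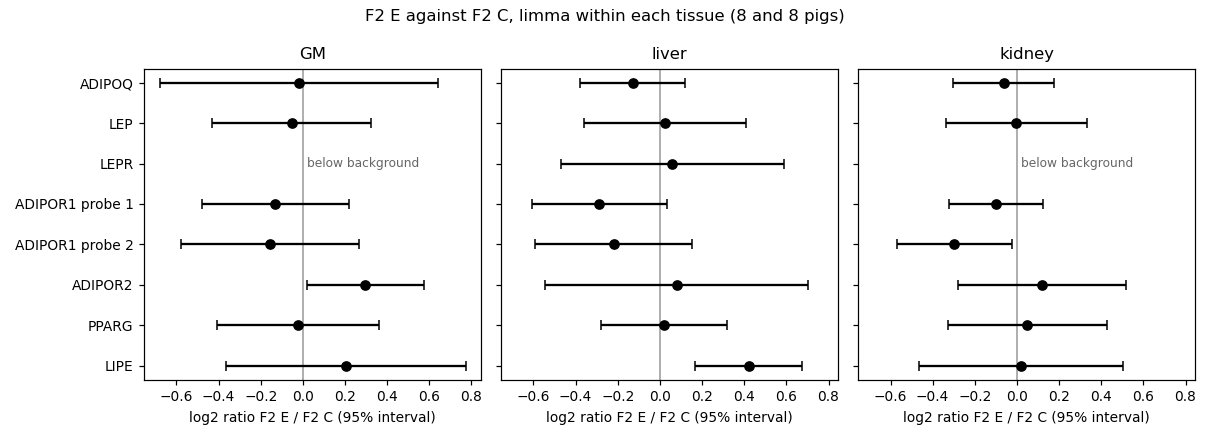
Log2 ratio of line E to line C (x axis) with its 95% interval for each member probe (y axis) in GM, liver and kidney, where a ratio of 0 means no difference. The interval of LIPE in liver runs from 0.17 to 0.67, that of ADIPOR2 in GM from 0.02 to 0.57 and that of ADIPOR1 probe 2 in kidney from -0.57 to -0.03, all other intervals include 0, and no ratio passed the adjusted p.

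The lists of related genes gave the same count as the members, with 0 called by limma between the lines in each tissue. In GM the median ratio was -0.04 over 8 adipocyte markers, 0.02 over 8 adipokine signalling genes, -0.12 over 6 lipolysis genes, -0.10 over 6 other adipokines and 0.17 over 4 PPARG partners, against -0.02 over all probes. The largest ratios in GM were those of RXRG (0.44, limma adjusted p = 0.229, and 0.28 on its other probe) and TNF (-0.43 on its brightest probe). SCD (-0.42) and PLIN1 (0.40) followed, and PLIN1 was well above background on 10 of the 16 GM arrays. CCL2, a chemokine, was at -0.40, and ABHD5 was at -0.31. PRKAG3 was at 0.23 and PPARGC1A, a coactivator of PPARG and of mitochondrial genes, at 0.20. NCOA2, a coactivator of nuclear receptors, was at 0.23 on its brightest probe and at -0.44 on another, so its probes disagreed.

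In liver the lists had medians of -0.03 (6 adipocyte markers), -0.10 (7 signalling genes), 0.23 (3 lipolysis genes), -0.07 (7 other adipokines) and 0.13 (4 PPARG partners). Beside FABP4 the largest ratios were those of SCD, the desaturase that makes oleic acid (-0.69), and PRKAG1, a regulatory subunit of AMP-activated kinase (-0.38, limma adjusted p = 0.530). PLIN2, which coats lipid droplets, was at 0.32 and ABHD5 at 0.23. NAMPT was at -0.30, STAT3 at -0.24 and RXRG at 0.15.

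In kidney the medians were -0.06 (9 adipocyte markers), 0.03 (8 signalling genes), -0.13 (7 lipolysis genes), -0.03 (7 other adipokines) and -0.07 (4 PPARG partners). AQP7, a glycerol channel, was at 0.33, PLIN2 at -0.38 and PLIN1 at -0.29. PLIN1 was close to background, with 11 of 16 kidney arrays well above it. PRKAA2 and CDH13 were at 0.17 and 0.12, CCL2 and TNF at -0.15 and 0.11, and NCOA1 at -0.10.

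**Figure D4:**
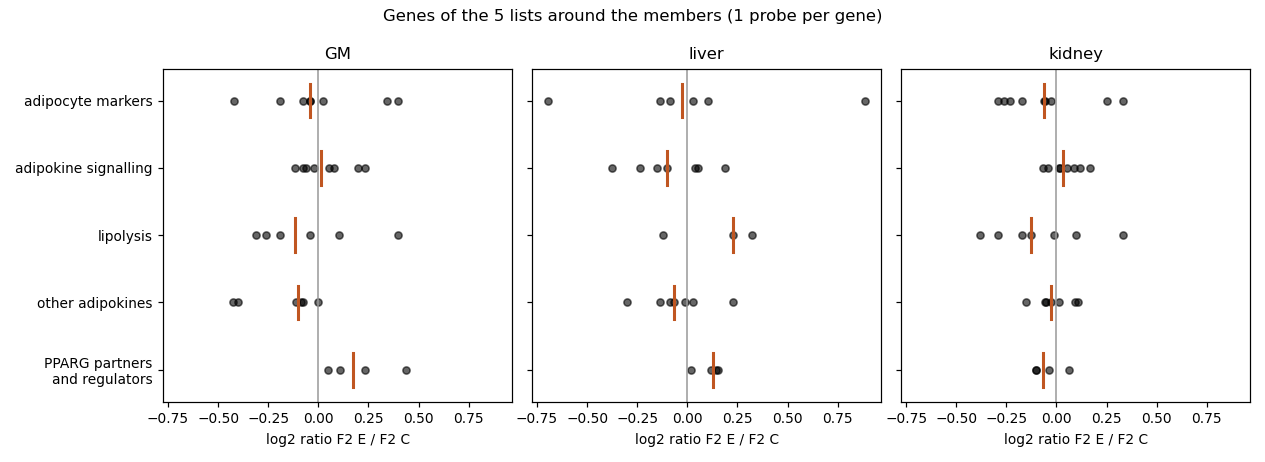
Log2 ratio of line E to line C (x axis) of each gene with a probe present in 5 lists (y axis) in GM, liver and kidney, with an orange bar at the median of the list. The medians lie between -0.13 and 0.23, and 0 genes were called by limma in any list.

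No member passed the test between the sexes. Over 22 comparisons of castrated males with females, with the line in the model, limma called 0 members and 0 had an unadjusted p below 0.05, beside 0.121% (GM), 0.121% (liver) and 0.0921% (kidney) of all probes called and 3.87%, 14.2% and 0.939% with an unadjusted p below 0.05. The smallest p belonged to ADIPOR2 in liver, where the difference of males from females was -0.56 (SE 0.27, limma adjusted p = 0.360), with an exact permutation p of 0.0873 when sex was permuted within the lines. The difference of the line effect between the sexes was called by limma for 0 of 22 (smallest adjusted p = 0.906, 0 with an unadjusted p below 0.05), beside 0% of all probes.

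Within GM the pigs with more ADIPOQ signal had more PPARG signal. Over the 16 GM arrays 10 relations among ADIPOQ, LEP, PPARG, LIPE and the mean of 8 adipocyte markers were computed. The markers were PLIN1, FABP4, CIDEC, CIDEA, AQP7, SCD, LPL and RBP4, and some of them are also made outside fat cells. PLIN1 was well above background on 10 and AQP7 on 14 of the 16 GM arrays. ADIPOQ and PPARG had r = 0.91 and rho = 0.94 (n = 16, permutation p = 1e-05 for both, the smallest these permutations can give, adjusted 0.0001). The r was 0.92 in F2 C, 0.91 in F2 E, 0.92 within slides and 0.92 without the 2 arrays farthest from the median of ADIPOQ. It thus held in each line and did not rest on those arrays. PPARG followed the markers with r = 0.88 and rho = 0.86 (permutation adjusted p = 0.00015 and 0.0004), and ADIPOQ followed them with r = 0.77 and rho = 0.72 (permutation adjusted p = 0.0017 and 0.0075). Within slides the r was 0.87 for PPARG and 0.80 for ADIPOQ. By line the r with the markers was lower in F2 C, 0.66 for PPARG and 0.50 for ADIPOQ, than in F2 E, 0.93 and 0.84.

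PPARG and LIPE had r = 0.75 and rho = 0.71 (permutation adjusted p = 0.0021 and 0.0075), with 0.76 within slides and 0.55 without the 2 farthest arrays. LIPE and the markers had r = 0.62 and rho = 0.59 (permutation adjusted p = 0.022 and 0.038), which was 0.76 in F2 E and 0.11 in F2 C, so the relation was not seen in F2 C. ADIPOQ and LIPE had r = 0.53 and rho = 0.52 (permutation adjusted p = 0.057 and 0.065), and 0.80 without the 2 farthest arrays. All values of a pair come from the same array, so they share its hybridisation and scaling.

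LEP stood outside this group. Its r was -0.22 with ADIPOQ, -0.00727 with PPARG, 0.18 with LIPE and 0.24 with the markers, and the smallest permutation adjusted p of these for r was 0.52 (rho from -0.01 to 0.43). These values rested on few arrays, and the LEP spot was well above background on 14 of the 16 GM arrays. Without the 2 farthest arrays LEP and ADIPOQ had r = 0.47, whereas within slides the r was -0.50. With the markers the r of LEP was 0.92 in F2 C and 0.02 in F2 E, and 0.72 without the 2 farthest arrays. On the scale of the 48 arrays the mean of the 7 markers with a value on all of them ranged in GM from 10.35 to 11.08 in F2 C and from 9.86 to 11.29 in F2 E. On the scale of the GM arrays alone its line difference was 0.01 (exact permutation p = 0.960).

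**Figure D5:**
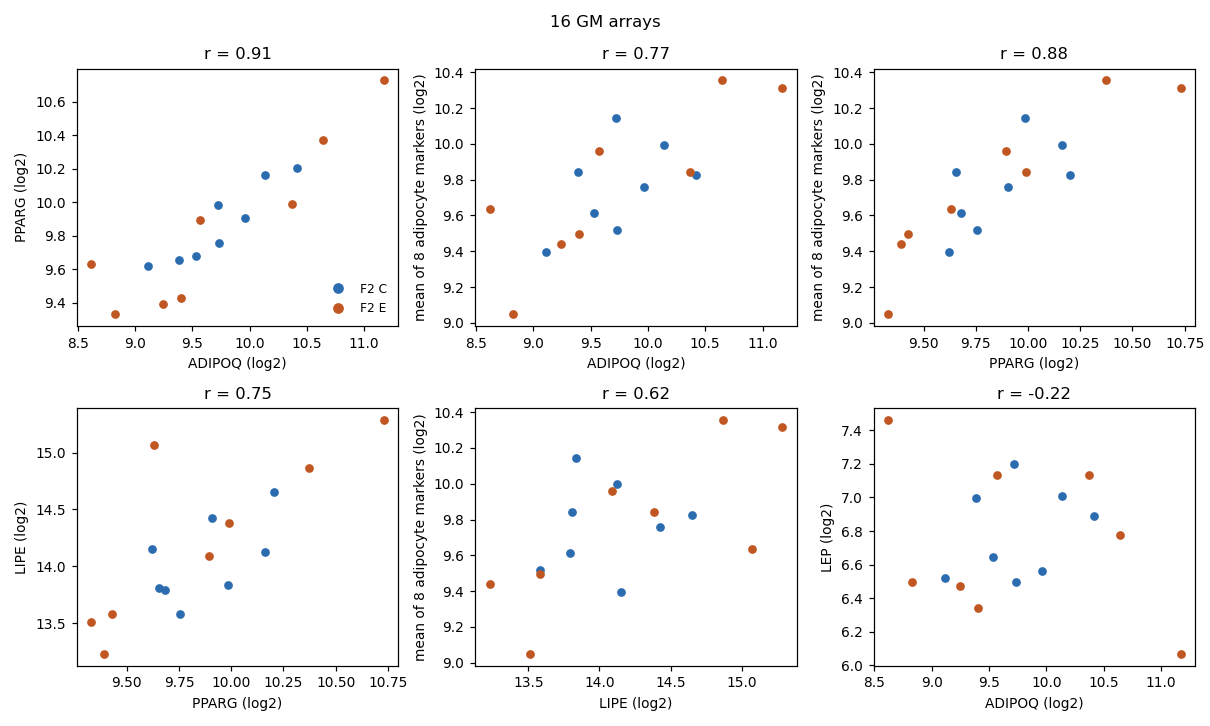
Log2 signals of pairs among ADIPOQ, PPARG, LIPE, LEP and the mean of 8 adipocyte markers (x and y axes) in the 16 GM samples, 1 point per pig, F2 C in blue and F2 E in orange. ADIPOQ and PPARG lie along a line with r = 0.91 in which both lines mix, while LEP is spread without a trend.

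The genes whose signal followed each member most closely, among named genes with a probe present in the tissue where the member was brightest, are given as a description over 16 arrays. In GM, among 1586 genes, these were MGST1 (r = 0.91), F5 (0.89) and MAL2 (0.86) for ADIPOQ. For PPARG they were CIDEA (0.90), a lipid droplet protein on the adipocyte list, MAL2 (0.89) and F5 (0.88). MAL2 and F5 thus stood in the top 3 of both genes. For LIPE they were GPM6B (0.88), CNN3 (0.86) and FABP4 (0.82), and for ADIPOR1 GDI2 (0.94), AP3B1 (0.91) and AAR2 (0.91). By rank GDI2, AP3B1 and AAR2 followed ADIPOR1 less closely, with rho = 0.71, 0.74 and 0.69. F2 E replicate 2, whose ADIPOR1 signal lay apart in GM, is among these arrays, and its part in the r was not tested. In liver, among 1661 genes, ADIPOR2 was followed by ITGAV (0.89), LDHB (0.87) and ABHD5 (0.87), and LEPR by RAE1 (0.89), CD163 (0.81) and ABCG2 (0.76). In kidney, among 1826 genes, LEP was followed by CYP19A1 (0.84), CYB561 (0.83) and ATP4A (0.75).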

How the data were processed

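Total RNA of GM, liver and kidney of 16 pigs was hybridised to 1-colour Agilent porcine arrays. Per the file headers, the intensities are those of Agilent Feature Extraction 10.5.1.1, deposited per spot and not normalized. The 3 tables of log2 values that the authors normalized between arrays (quantile method) were used as an alternative only, since their 48 columns name the line but not the pig. Their columns of fold changes and p-values were not used. The number of arrays, not a read depth, limits the precision.

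Here quantile normalization was applied to the median spot intensity of each tissue's 16 arrays, marked spots were left out, and spots of a probe were averaged on the log2 scale. A probe was tested where, in 1 line or both, 50% or more of the arrays had a linear signal over 25 that the software marked as well above background, with at least 2 unmarked arrays per line. limma 3.58.1 in R 4.3.3 compared the lines, with p-values adjusted by the Benjamini-Hochberg method over all probes present. Exact two-sided permutation tests over the 6435 splits of 16 pigs can give 0.000155 at the smallest. For tissues all 48 arrays were normalized together. Correlations used 100000 resamples in Python 3.11.15 with scipy 1.17.1. The scripts were tested on simulated data. Names through RefSeq came from tables of the assembly Sscrofa11.1, whose coordinates were not used, because the array's build is not given in the sources used here. Probes without such a name took 1 from the gene lists of the study where these gave it.

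The members and lists were chosen with earlier results of these data known. Named were all member probes, list genes called in any comparison, the 2 genes of each list with the largest line ratio in a tissue, and the 3 genes most like each member. Some genes that this rule names are not reported here. The replicate numbers did not pair the pigs.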

Additional observations from a re-analysis of the deposited data

Results flagged for a closer look

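In groups of 8 samples a lowest or highest sample was singled out where its gap to the next, as a share of the group's range, exceeded Dixon's 95% critical value. This was the case in 3 of the 48 groups formed by 8 member probes, 3 tissues and 2 lines, and chance singles out about 1 in 20. ADIPOQ in liver of F2 E replicate 8 was read at 5.60, with the next F2 E liver at 6.09. Without it the ratio of F2 E over F2 C was -0.04 in place of -0.13. ADIPOR1 in GM of F2 E replicate 2 was read at 9.08 on probe 1, with the next sample at 10.11, and at 7.50 on probe 2, with the next at 8.54. Both values belong to 1 array, and without it the ratios in GM were 0.01 and 0.02 in place of -0.13 and -0.16.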

How the results depend on the processing

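No member was called between the lines or sexes under any alternative run, and each call of a member between tissues kept its direction and its side of the threshold. The liver over kidney difference of ADIPOQ, which was not called, turned to 0.48 with the median signal scaled to the 75th percentile and to 0.015 within F2 C (-0.078 to 0.0064 without 1 pig). Normexp on the mean signal was planned and not run, because the mean signal was not in the columns used here, and it was run on the median signal, an alternative chosen after seeing the data.

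Small ratios of F2 E over F2 C turned sign, none of them called, and the cause was not tested. Within the upper series they became 0.17 (ADIPOQ), 0.43 (LEP) and 0.15 (PPARG) in GM, -0.043 (LEP), -0.44 (LEPR), -0.12 (ADIPOR2) and -0.078 (PPARG) in liver, and 0.014 (LEP) and -0.44 (ADIPOR2) in kidney. Within the lower series they became 0.000717 (ADIPOR1 probe 1, GM), -0.19 (LIPE, GM) and -0.14 (LIPE, kidney). With the median signal at the 75th percentile they became 0.051 (LEP, GM) and 0.10 (ADIPOQ, liver), and in kidney 0.18 (ADIPOQ), 0.011 (LEP) and -0.019 (LIPE). The processed signal gave 0.016 (PPARG, GM) and 0.0045 (LEP, kidney), normexp gave 0.0039 (ADIPOQ, kidney), and mixed slide 1 gave -0.085 (LEP, liver).

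Leaving out 1 pig at a time gave ranges across 0 in GM for ADIPOQ (-0.23 to 0.14), LEP (-0.16 to 0.042), ADIPOR1 (-0.18 to 0.012 and -0.24 to 0.016) and PPARG (-0.15 to 0.048). It did so in liver for LEP (-0.095 to 0.10), LEPR (-0.067 to 0.22), ADIPOR2 (-0.041 to 0.23) and PPARG (-0.042 to 0.13), and in kidney for LEP (-0.078 to 0.0496), PPARG (-0.039 to 0.15) and LIPE (-0.083 to 0.13). LIPE in liver stayed at 0.37 to 0.47.

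The numbers of probes called in all, 197 (GM), 27 (liver) and 4 (kidney), moved more. In GM they were 126 (methods' t-test), 131 (no presence filter), 99 (well above background on all 16 arrays), 5 (slide as a random block), 505 (series as a block), 348 and 1090 (within the lower and upper series) and 89 to 194 without 1 pig. In liver they were 11 (methods' t-test), 9 (median signal at the 75th percentile), 16 (well above background on all arrays), 46 (series as a block), 62 (lower series), 108 (slide as a fixed block) and 13 to 40 without 1 pig. In kidney they were 2 (median signal), 2 (well above background on all arrays), 1 (slide as a random block), 9 (series as a block), 198 and 534 (within the series). With the replicate number as a block, which does not pair these pigs, they were 51 in GM, 22 in liver and 0 in kidney, with 0 members. Probes whose line effect differed between GM and liver, 42 in all, were 9 with the median signal and 23 to 55 without 1 pig, and between GM and kidney, 16 in all, 4 with the median and 29 with the processed signal and 4 to 24 without 1 pig. Those that differed between the sexes in GM, 31 in all, were 26 to 47 without 1 pig.

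The correlation of LEP turned to 0.29 with ADIPOQ and 0.51 with PPARG within F2 C, and to 0.47 and 0.62 without the 2 farthest arrays. Signal close to background limits ADIPOQ in liver and kidney, LEPR and, on some F2 E arrays, LEP in GM.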
